A study of Homo sapiens with 6 samples.

Results

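The EGFR family, its ligands and its inhibitors were followed by their mRNA after knockdown of Matrin3, the RNA-binding nuclear matrix protein made from MATR3, in the human colorectal cancer cell line HCT116. The 10 genes were taken by symbol, as the receptors EGFR, ERBB2 and ERBB3, the ligands AREG, EREG, TGFA, HBEGF and EPGN, and the inhibitors ERRFI1 and LRIG1. All 10 were found among the 56632 genes of the deposited tables. Poly(A) RNA was sequenced from 3 libraries of cells transfected with a negative control siRNA (siCTRL) and 3 of cells transfected with a pool of siRNAs against Matrin3 (siMatrin3). Cells were transfected 2 times, 72 hours apart, and the labels add a further 48 hours. The methods place reseeding at that time and the RNA extraction 3 days past the second round, so the sources differ on the harvest. The same parental line gave all libraries, which the study calls biological triplicates. Without Matrin3 rescue or separate siRNAs among these libraries, other effects of the reagents cannot be told apart from those of lower Matrin3.

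EGFR and its relatives are receptor tyrosine kinases that pair at the cell surface when a ligand binds, and signal through RAS and the MAP kinase ERK, through PI3K and through STAT factors. Ligands are made as membrane-bound precursors and are cut free by surface proteases. ERK output feeds back on itself, because it induces phosphatases and adaptor-binding inhibitors that dampen the pathway. In colorectal cancer, AREG and EREG are studied as ligands of tumours that depend on EGFR.

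The libraries held 40808173 to 54185650 expected counts, which are RSEM's estimates of reads per gene. MATR3 fell from 181 ± 5.01 to 106 ± 9.37 TPM (SD, n = 3 each, transcript abundance per length, with an equal total in each library). By counts the edgeR log2 fold change was -0.93 (SE 0.065, adjusted p = 7.67e-05), a fall of 47.5%, so part of the mRNA remained. On log2(TPM + 0.1) the log2 fold change was -0.78 with limma. The transcript length that RSEM assigned to MATR3 averaged 2489 bases in siCTRL and 2222 in siMatrin3. This log2 length change of -0.16 was not called (limma adjusted p = 0.374). Exons of MATR3 overlap those of SNHG4 on the same strand. Of 9 colorectal epithelial markers 6 averaged at least 1 TPM, with EPCAM at 240.4 ± 4.2 TPM in siCTRL and 243 ± 7.10 in siMatrin3, while KRT20, VIL1 and CEACAM5 averaged under 1 TPM. The summed level of this list ran from 2947 to 3098 TPM in siCTRL and from 2692 to 2918 in siMatrin3. The 6 blood and immune markers summed to 0.70 to 1.18 TPM in siCTRL and 0.80 to 1.09 in siMatrin3, and 4 endothelial markers to 0.24 to 0.31 and 0.19 to 0.24. The 6 fibroblast markers summed to 13.7 to 16.2 and 15.0 to 19.1 TPM, nearly all from COL1A1, with COL1A2, DCN and LUM at 0 in every library.

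Matrin3 knockdown was followed by lower mRNA of a ligand, TGFA, and of an inhibitor, LRIG1, and by no call in the receptors or in the most abundant ligands. With edgeR (quasi-likelihood test, Benjamini-Hochberg adjusted over all genes), 2 of the 9 genes tested fell and 0 rose. Over all 16786 genes tested, 11% were called, 5.97% lower and 5.05% higher. The median log2 fold change was -0.04 over the 9 genes and 0.00 over all genes tested. EPGN had too few counts to be tested. In a bulk library, fewer cells that express a gene and less of its RNA per cell cannot be told apart.

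**Figure D1:**
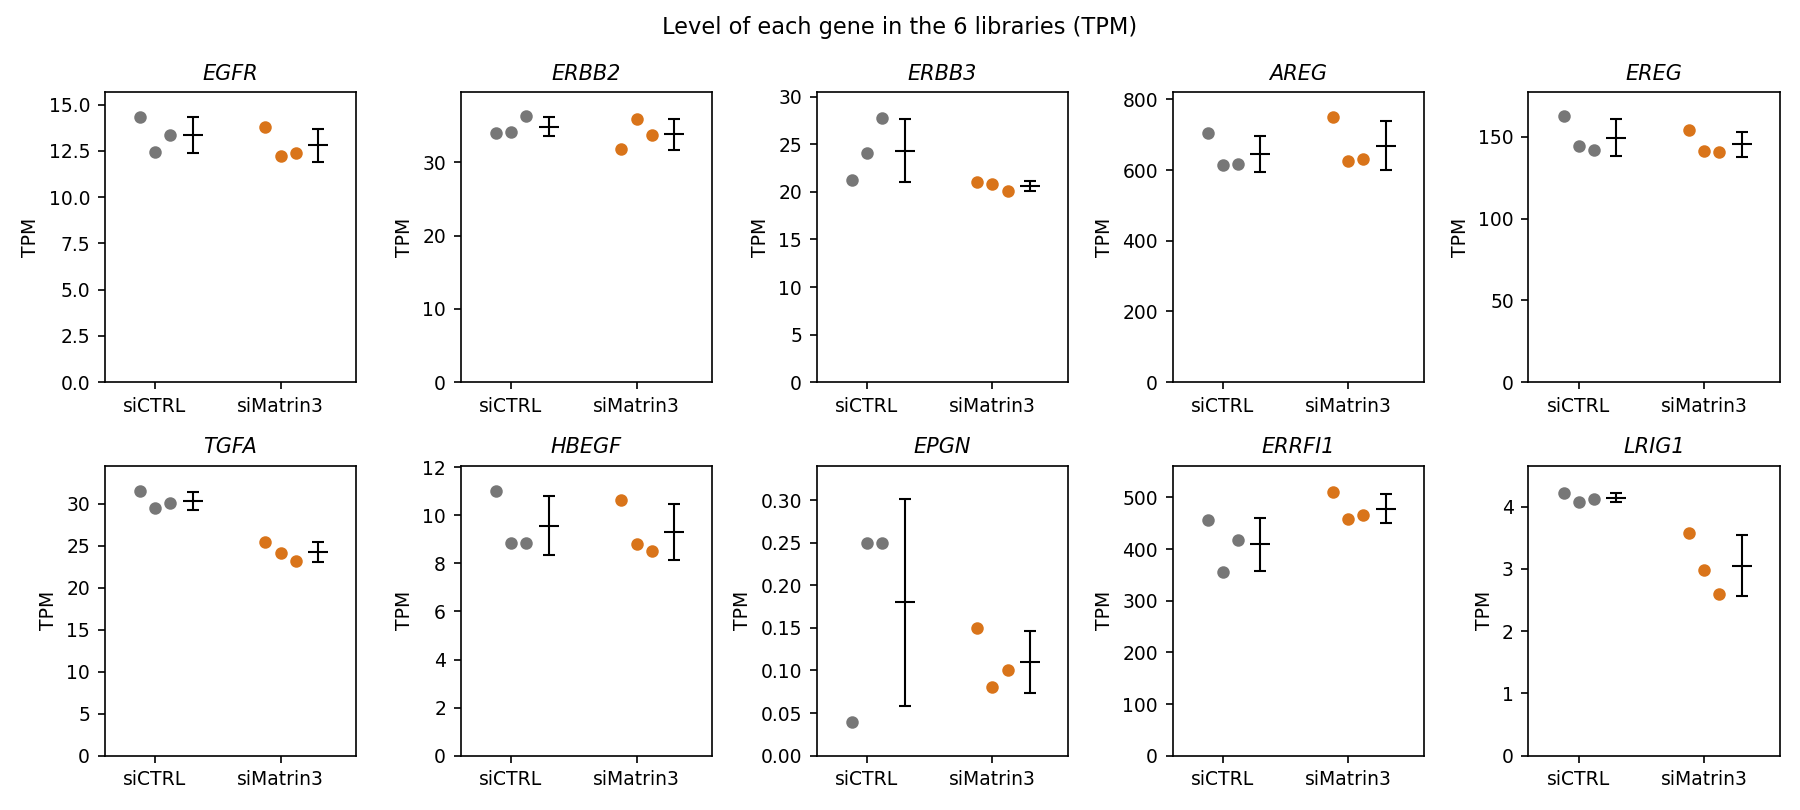
TPM (transcript abundance per length) of the 10 genes, with siCTRL libraries as grey and siMatrin3 libraries as orange points in replicate order, beside a line for the mean and a bar for the SD of the 3. TGFA and LRIG1 lie lower in all 3 siMatrin3 libraries, ERRFI1 lies higher by a narrow gap, and EGFR, ERBB2, AREG, EREG, HBEGF and EPGN overlap.

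Because TGFA and LRIG1 both fell, the sequence before the start site of each is shown. The sequences are from RefSeq (GRCh38.p14, not the hg19 build of the tables) and hold the 250 bases before the most upstream start listed, 5′ to 3′ on the strand of the gene, which is the minus strand for both. TGFA lies at chr2:70553827-70554076 and LRIG1 at chr3:66501122-66501371. Capitals mark the GC box GGGCGG, searched on both strands.
TGFA: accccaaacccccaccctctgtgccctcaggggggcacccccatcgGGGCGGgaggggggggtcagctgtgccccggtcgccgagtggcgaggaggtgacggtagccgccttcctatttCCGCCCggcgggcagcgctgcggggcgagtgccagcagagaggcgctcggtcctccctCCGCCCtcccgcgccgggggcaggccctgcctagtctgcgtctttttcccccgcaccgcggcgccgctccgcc
LRIG1: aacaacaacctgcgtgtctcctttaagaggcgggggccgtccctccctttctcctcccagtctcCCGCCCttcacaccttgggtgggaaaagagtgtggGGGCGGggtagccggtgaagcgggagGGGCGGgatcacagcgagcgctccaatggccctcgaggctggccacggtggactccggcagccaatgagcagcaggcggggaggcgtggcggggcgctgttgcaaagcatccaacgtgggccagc

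Each of these windows held 3 GC boxes, a motif present in 42.6% of the 35116 windows of that length in the table. Neither held the ETS core CCGGAA, the AP-1 motif TGANTCA, the CRE TGACGTCA or the TATA box TATAAA, which stood in 14.5%, 6.57%, 1.65% and 10.7% of windows. The promoter table lists other starts for both genes, 2 in all for TGFA and 4 for LRIG1. Of the 10 genes, 9 had a window, and ERBB3 had none. The window of AREG, which was not called, held 1 CRE, 1 ETS core, 1 GC box and 1 TATA box. GC boxes without any of the other motifs also stood before the uncalled HBEGF (5), EGFR (2) and ERRFI1 (1). The windows of ERBB2, EREG and EPGN held no GC box. GC content was 75.6% for TGFA, 66.8% for LRIG1, 76.4% for HBEGF and 73.6% for EGFR, against a median of 58.0% over all windows. A match describes the letters only.

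The receptors were ordered ERBB2, ERBB3, EGFR by level in both groups. ERBB2, the receptor with no known ligand of its own that serves as the preferred partner of the others, stood at 34.1, 34.2 and 36.3 TPM in siCTRL and at 31.8, 36.0 and 33.7 in siMatrin3. The groups overlapped, and the log2 fold change was -0.06 (95% interval -0.16 to 0.05, edgeR adjusted p = 0.528). EGFR stood at 14.4, 12.4 and 13.35 TPM in siCTRL and at 13.8, 12.2 and 12.4 in siMatrin3. Its groups overlapped too, with a log2 fold change of -0.04 (95% interval -0.19 to 0.10, edgeR adjusted p = 0.716).

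ERBB3, the receptor of neuregulins with a weak kinase of its own, stood at 21.2, 24.05 and 27.8 TPM in siCTRL and at 21.1, 20.8 and 20.1 in siMatrin3. All siMatrin3 values lay below all siCTRL values, but the highest siMatrin3 and the lowest siCTRL library were at 21.09 and 21.23 TPM. By counts the log2 fold change was only -0.06 (95% interval -0.16 to 0.03, edgeR adjusted p = 0.396), while on log2(TPM + 0.1) it was -0.23 (limma adjusted p = 0.222). TPM divides by the transcript length that RSEM assigned to the gene, averaged over its transcripts by their estimated abundance, which was 3924, 3404 and 3055 bases in siCTRL and 3805, 3724 and 3832 in siMatrin3. Exons of ERBB3 also overlap those of an adjoining gene model of the same strand. Its expected counts were not whole (over 0.005 from a whole number) in 0 of 6 libraries, so they showed no division of reads with other genes. None of the 3 receptors was called, 0 had an unadjusted p under 0.05 by edgeR, and 0 were called by DESeq2.

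**Figure D2:**
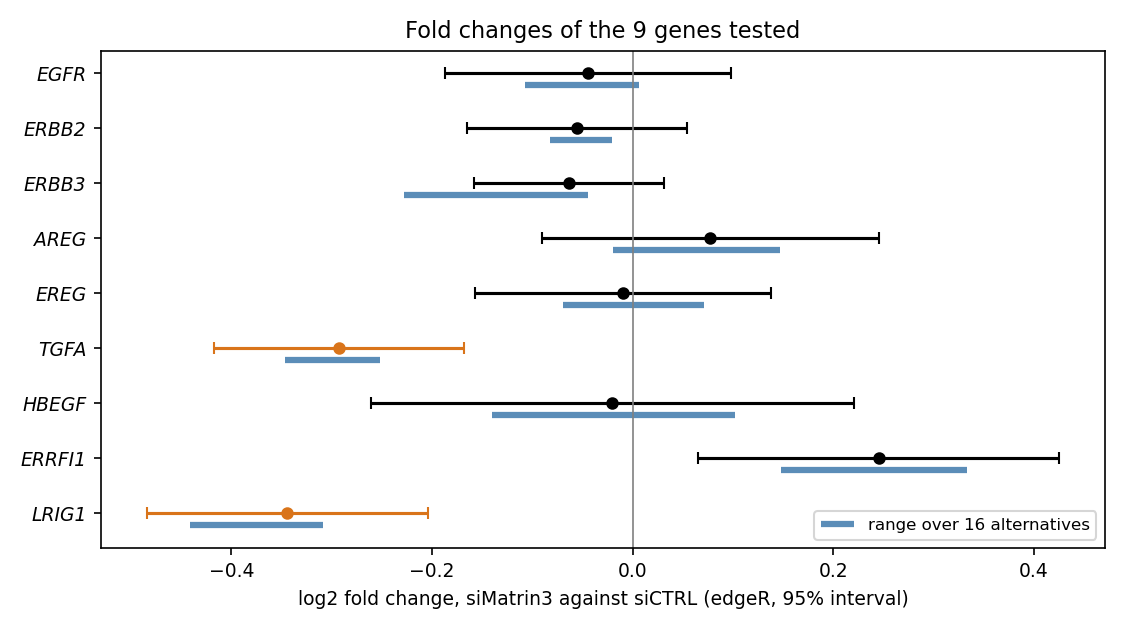
Log2 fold changes of the 9 genes tested, siMatrin3 against siCTRL, with the 95% interval of edgeR (orange where the adjusted p was under 0.05, black otherwise), and below each a blue bar for the range over 16 alternative analyses. TGFA at -0.29 and LRIG1 at -0.34 lie below 0 with their whole blue bars, as do the uncalled ERBB2 and ERBB3 closer to 0, and ERRFI1 at 0.25 lies above it.

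Among the ligands, AREG (amphiregulin) was the most abundant of the 10 genes and lay at the 99.0th percentile of genes that averaged at least 1 TPM. It stood at 705, 615 and 618 TPM in siCTRL and at 749.8, 626 and 632 in siMatrin3. The groups overlapped, and the log2 fold change was 0.08 (95% interval -0.09 to 0.25, edgeR adjusted p = 0.571). RSEM's counts of AREG were not whole (over 0.005 from a whole number) in 6 of 6 libraries, so reads were divided with other genes, and hg19 is known to carry a near-identical second copy of AREG, a synonym of which (AREGB) RefSeq lists. The level of AREG is uncertain to the extent of that division. Among the receptors, counts were likewise not whole for ERBB2 in 6 of 6 libraries and for EGFR in 5 of 6.

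EREG (epiregulin), which lies next to AREG in RefSeq, between AREG and EPGN, was the next ligand by level. It stood at 163, 144 and 142 TPM in siCTRL and at 154, 141 and 141 in siMatrin3. Its log2 fold change was -0.01 (95% interval -0.16 to 0.14, edgeR adjusted p = 0.949), with groups that overlapped. EPGN (epigen), the neighbour on the far side of EREG, had 1, 8 and 9 counts in siCTRL and 6, 3 and 2 in siMatrin3, between 0.04 and 0.25 TPM. The ligands of this stretch thus ranged over the whole scale, from AREG at the top to EPGN near 0.

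TGFA, transforming growth factor alpha, a ligand that binds EGFR alone, was the ligand that changed. It stood at 31.5, 29.45 and 30.1 TPM in siCTRL and at 25.45, 24.2 and 23.1 in siMatrin3. The lowest siCTRL library lay above the highest siMatrin3 library. The mean went from 30.3 ± 1.03 to 24.3 ± 1.16 TPM (SD, n = 3 each), and by edgeR the log2 fold change was -0.29 (SE 0.056, adjusted p = 0.0103), a fall of 18.4%. TGFA was lower in every alternative analysis, with log2 fold changes from -0.35 to -0.25, and lost its call only without siMatrin3 replicate 3 (-0.26, edgeR adjusted p = 0.0567).

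HBEGF, the heparin-binding ligand, stood at 11, 8.85 and 8.86 TPM in siCTRL and at 10.6, 8.80 and 8.50 in siMatrin3. The log2 fold change was -0.02 with a wide interval (95% interval -0.26 to 0.22, edgeR adjusted p = 0.935). AREG, EREG and HBEGF were each highest in replicate 1 of both groups. The same held for 7 of the 9 genes tested, and for 13.3% of all genes tested. Those genes are EGFR, AREG, EREG, TGFA, HBEGF, ERRFI1 and LRIG1. Without replicate 1 of both groups, an alternative chosen after seeing the data, TGFA and LRIG1 were still called and ERRFI1 was called as well.

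Since TPM is per length, the ligands can be set beside each other within a library. The summed TPM of the 5 ligands was 909.5, 798 and 799 in siCTRL and 940.4, 800.4 and 804 in siMatrin3, so replicate 1 was highest in both groups and the groups overlapped. AREG made up 77.3% ± 0.175 of this sum in siCTRL and 78.8% ± 0.789 in siMatrin3 (SD, n = 3 each). EREG made up 17.9% ± 0.146 and 17.2% ± 0.668, and HBEGF 1.14% ± 0.0581 and 1.10% ± 0.0375. TGFA made up 3.46%, 3.69% and 3.76% of the sum in siCTRL and 2.71%, 3.02% and 2.88% in siMatrin3. The shares of TGFA and EREG were lower, and that of AREG higher, in all 3 siMatrin3 libraries than in any siCTRL library, while the sum overlapped. Shares of a sum depend on each other, and neither AREG nor EREG was called. These gaps follow from the TPM values given above and are no further result.

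**Figure D3:**
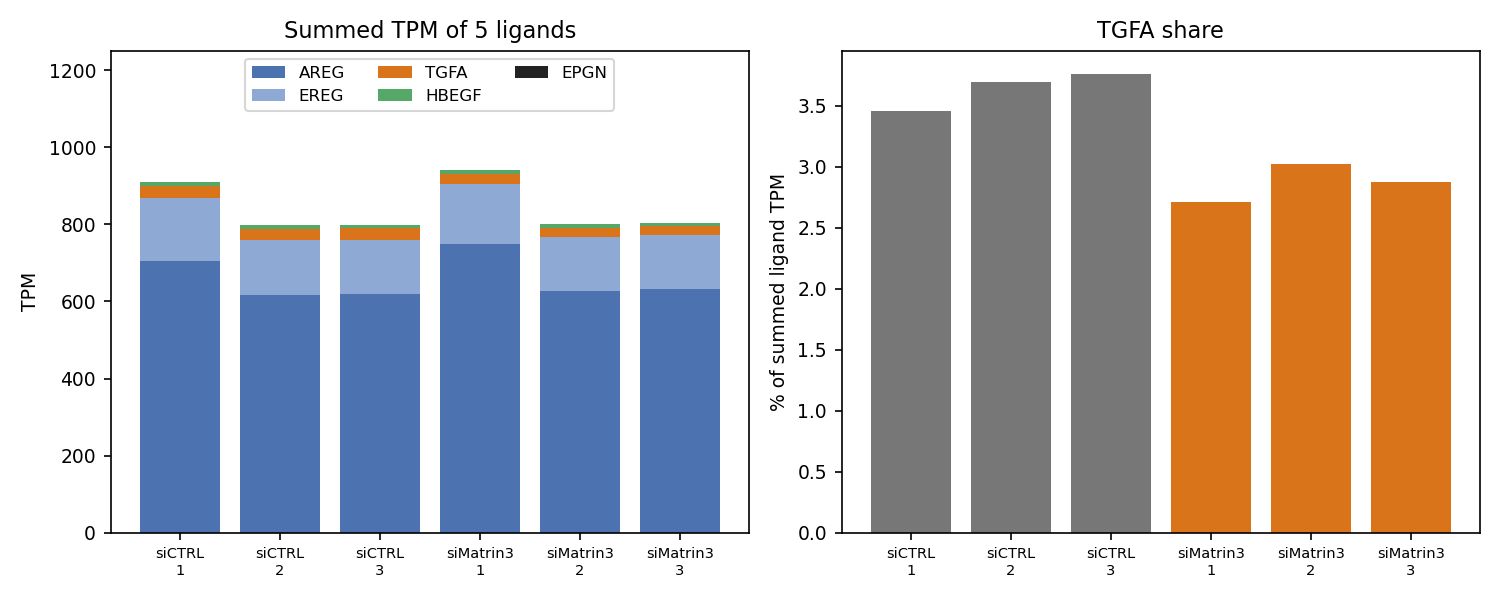
Left, TPM of the 5 ligands stacked in each of the 6 libraries. Right, TGFA as a percent of that sum, in siCTRL (grey) and siMatrin3 (orange). AREG and EREG fill most of every bar, and the TGFA share lies between 3.46% and 3.76% in siCTRL and between 2.71% and 3.02% in siMatrin3.

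Of the inhibitors, LRIG1 fell and ERRFI1 was not called. LRIG1, a membrane protein that promotes degradation of EGFR-family receptors and marks intestinal stem cells, stood at 4.22, 4.08 and 4.13 TPM in siCTRL and at 3.57, 2.98 and 2.60 in siMatrin3. All siMatrin3 libraries lay below the siCTRL libraries, which were close together. The log2 fold change by counts was -0.34 (SE 0.063, edgeR adjusted p = 0.00827), a fall of 21.2%, and on log2(TPM + 0.1) it was -0.44. The 6 libraries held 470 to 736 expected counts of LRIG1, which by the same tolerance of 0.005 were not whole in any of them, so some reads were divided with other genes. Exons of LRIG1 overlap SLC25A26 on the opposite strand, as EGFR, ERBB2, ERRFI1 and DUSP6 overlap opposite-strand genes, and whether the counting kept strands apart is not given in the sources used here. The call was lost with an offset for transcript length (log2 fold change -0.42, edgeR adjusted p = 0.066) and with limma on log2(TPM + 1) or log2(TPM + 0.1) (adjusted p = 0.110 and 0.117), and kept in the other 13 of 16 alternatives.

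ERRFI1 (MIG6), a cytoplasmic protein that binds the kinase domain of EGFR and is itself induced by EGFR signalling, was the second most abundant of the 10 genes. It stood at 457, 355 and 417 TPM in siCTRL and at 511, 459 and 466 in siMatrin3. The groups did not overlap, but siCTRL replicate 1 and siMatrin3 replicate 2 were only a little apart. The log2 fold change was 0.25 (SE 0.081, 95% interval 0.07 to 0.43), and it did not pass the test once adjusted over all genes (edgeR adjusted p = 0.082). It was past the threshold in 4 of 16 alternatives. Among them were leaving out siCTRL replicate 1 (log2 fold change 0.33, edgeR adjusted p = 0.0198) and fitting the replicate number as a block (0.25, edgeR adjusted p = 0.00404). Without siCTRL replicate 2 the log2 fold change stood at 0.15. The TPM ratio of ERRFI1 to LRIG1 was 108, 87.0 and 101 in siCTRL and 143, 154 and 179 in siMatrin3. That gap follows from the values of both genes, which did not overlap and moved in opposite directions, and is no further result.

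Of the 9 genes tested, 4 had TPM values that did not overlap between the groups, TGFA, LRIG1 and ERBB3 lower in siMatrin3 and ERRFI1 higher. Over all genes tested the groups did not overlap for 25.1%, and siMatrin3 lay below siCTRL for 15.2%. The order of the 10 genes by mean TPM was the same in both groups, AREG, ERRFI1, EREG, ERBB2, TGFA, ERBB3, EGFR, HBEGF, LRIG1 and EPGN, and no neighbours in this order overlapped within a group. By the ratio of their means, the closest neighbours in siCTRL were ERBB2 and TGFA, with means of 34.9 and 30.3 TPM, and in siMatrin3 TGFA and ERBB3, with means of 24.3 and 20.7 TPM.

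**Figure D4:**
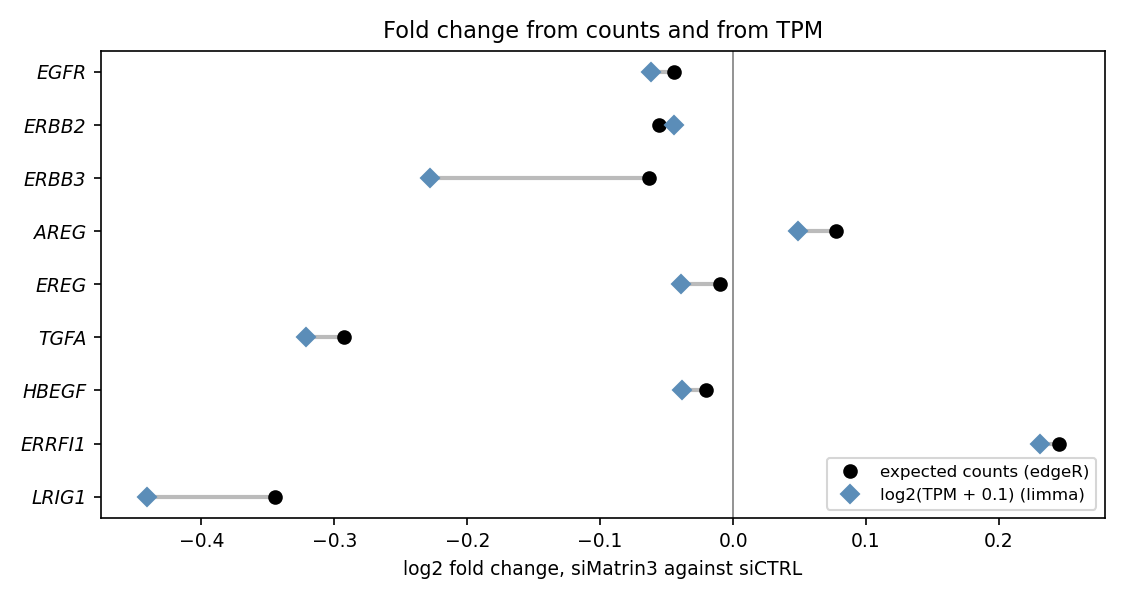
Log2 fold changes of the 9 genes tested, siMatrin3 against siCTRL, from expected counts with edgeR (black circles) and from log2(TPM + 0.1) with limma (blue diamonds). The 2 values lie apart mainly for ERBB3 (-0.06 and -0.23) and LRIG1 (-0.34 and -0.44).

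The mix of transcripts was examined through the weighted transcript length of each gene. None of the 9 genes with enough counts changed in length by limma (0 past the threshold and 0 with an unadjusted p under 0.05, smallest adjusted p = 0.932). Of all 12148 genes tested for length, 1 was called, 0.00823%, and 767 had an unadjusted p under 0.05. ERBB3 and LRIG1 had the widest intervals, a log2 length change of 0.14 (95% interval -0.11 to 0.38) for ERBB3 and of 0.08 (95% interval -0.20 to 0.36) for LRIG1. Single libraries moved both. The change of ERBB3 was 0.23 without siCTRL replicate 1 and 0.05 without siCTRL replicate 3. That of LRIG1 was 0.20 without siMatrin3 replicate 1, 0.04 without siMatrin3 replicate 2 and 0.01 without siMatrin3 replicate 3. For LRIG1 the length was 4208, 4341 and 4209 bases in siCTRL and 3834, 4768 and 4999 in siMatrin3, so the siMatrin3 libraries differed among themselves. For EGFR, AREG, EREG, TGFA, HBEGF and ERRFI1 the interval stayed within 0.05 on either side of 0 on the log2 scale. A gene's mean length does not show which exon is included.

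The other receptor and ligands of the family were low. ERBB4 and NRG3 were at 0 in every library to the precision of the TPM values, NRG1 reached at most 0.03 TPM, and EGF and NRG2 averaged under 1 TPM in both groups. NRG4 stood at 0.73, 1.08 and 0.97 TPM in siCTRL and at 1.19, 1.22 and 1.11 in siMatrin3, with no overlap, but by counts its log2 fold change was 0.12 (edgeR adjusted p = 0.735). BTC (betacellulin), the neighbour of AREG, averaged 3.94 ± 0.582 TPM in siCTRL and 3.48 ± 0.0777 in siMatrin3. Its groups overlapped, and the log2 fold change was -0.32 (edgeR adjusted p = 0.0584). Of the 4 genes of this list that could be tested, 0 were called by edgeR and 0 by DESeq2, and 1, BTC, had an unadjusted p under 0.05 by edgeR.

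Of 5 genes of ligand shedding, 1 rose and 0 fell, where 5.05% of all genes tested were called higher, so 1 call is little to read. RHBDF2 (iRhom2), which carries the sheddase ADAM17 to the cell surface, stood at 37.0, 36.2 and 36.4 TPM in siCTRL and at 39.2, 41.9 and 41.5 in siMatrin3 (log2 fold change 0.21, SE 0.046, edgeR adjusted p = 0.0194), with no overlap between the groups. This call was lost in 7 of 16 alternatives, among them without replicate 2 or 3 of either group (log2 fold change 0.18 to 0.23, edgeR adjusted p from 0.0541 to 0.0702). Neither ADAM17 nor ADAM10 was called. Of 12 other inhibitors and degradation factors of the receptors, 0 were called by edgeR or by DESeq2, and 2, the phosphatases PTPN1 and PTPRJ, had an unadjusted p under 0.05 by edgeR. The 18 adaptors and members of the RAS-MAPK cascade likewise had 0 calls by edgeR, where 1, SHC1, had an unadjusted p under 0.05. DESeq2 called 1 of them, also SHC1, an adaptor that binds phosphorylated receptors, for which edgeR gave a log2 fold change of 0.14 (adjusted p = 0.0998). BTC, PTPN1, PTPRJ and SHC1 were named after their values were seen.

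Of the 6 other pathway genes called, 3 were feedback regulators, and all 3 fell. Of 20 feedback regulators and target genes of ERK, 3 fell and 0 rose, where 5.97% of all genes tested were called lower and 5.05% higher. In this list 10 had siMatrin3 TPM values below all siCTRL values, with 0 above, where 15.2% of all genes tested lay below. Only 3 of these 10 were called. By counts the log2 fold change was as small as -0.02 for CCND1 (edgeR adjusted p = 0.801) and -0.06 for ETV5 (edgeR adjusted p = 0.421). The median log2 fold change of this list was -0.09, against 0.00 over all genes tested. These counts carry no test of the list, which was chosen with earlier results of these data known. DUSP6, a cytoplasmic phosphatase that inactivates ERK, stood at 105, 103 and 105 TPM in siCTRL and at 84.8, 74.4 and 73.4 in siMatrin3. Its log2 fold change was -0.40 (SE 0.049, edgeR adjusted p = 0.00127), a fall of 24.0%.

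DUSP4, a nuclear phosphatase of MAP kinases, stood at 46.8, 42.6 and 47.1 TPM in siCTRL and at 35.8, 35.5 and 35.3 in siMatrin3 (log2 fold change -0.34, SE 0.049, edgeR adjusted p = 0.00293). SPRY4, a Sprouty protein that holds back RAS-ERK signalling, stood at 62.0, 55.1 and 55.05 TPM in siCTRL and at 49.2, 42.8 and 45.3 in siMatrin3 (log2 fold change -0.34, SE 0.057, edgeR adjusted p = 0.00561). For DUSP6, DUSP4 and SPRY4 the groups did not overlap. DUSP6 and DUSP4 kept their call in all 16 alternatives, and SPRY4 lost it with limma on TPM (adjusted p = 0.0512 and 0.0506). The remaining members of this list did not pass, and their log2 fold changes ran from -0.50 for SPRY1, another Sprouty protein (edgeR adjusted p = 0.0552), to 0.24 for the immediate early factor EGR1 (edgeR adjusted p = 0.415). SPRY1 did not overlap between the groups, with siMatrin3 below. Of the 20 genes, 15 had a negative fold change, against 8447 of all 16786 genes tested. By edgeR 5 had an unadjusted p under 0.05, the 3 called genes, SPRY1 and the receptor kinase EPHA2. The share of all genes under that unadjusted threshold was not counted, but it cannot be below the 11% called after adjustment. The unadjusted counts of this and the other lists thus have no share to be read against. DESeq2 called 4 of the list, the same 3 and EPHA2. It called 1780 of 29320 genes with counts. That total includes low genes outside the 16786 that edgeR tested, so it is no like share to set beside the list. SPRY1, EGR1, EPHA2, CCND1 and ETV5 were named after their values were seen.

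In the PI3K, STAT and PLC branch, 2 of 10 genes fell and 0 rose, against 5.97% of all genes tested called lower. STAT3, a transcription factor activated by receptor kinases and cytokines, averaged 35.1 ± 1.17 TPM in siCTRL and 30.7 ± 0.0723 in siMatrin3 (SD, n = 3 each). Its log2 fold change was -0.18 (edgeR adjusted p = 0.0216). PIK3R1, the regulatory subunit p85 alpha of PI3K, averaged 4.49 ± 0.249 TPM in siCTRL and 3.70 ± 0.139 in siMatrin3, a log2 fold change of -0.23 (edgeR adjusted p = 0.0289). The groups did not overlap for either gene. STAT3 lost its call in 8 of 16 alternatives, among them without siCTRL replicate 1 or 3 or siMatrin3 replicate 2 or 3 (edgeR adjusted p up to 0.089). PIK3R1 lost it in 7, among them without siCTRL replicate 1 or siMatrin3 replicate 2 or 3 (edgeR adjusted p up to 0.117). Over the 6 lists together, 1 of 69 genes tested rose and 5 fell, which is 8.70% called against 11% of all genes tested.

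**Figure D5:**
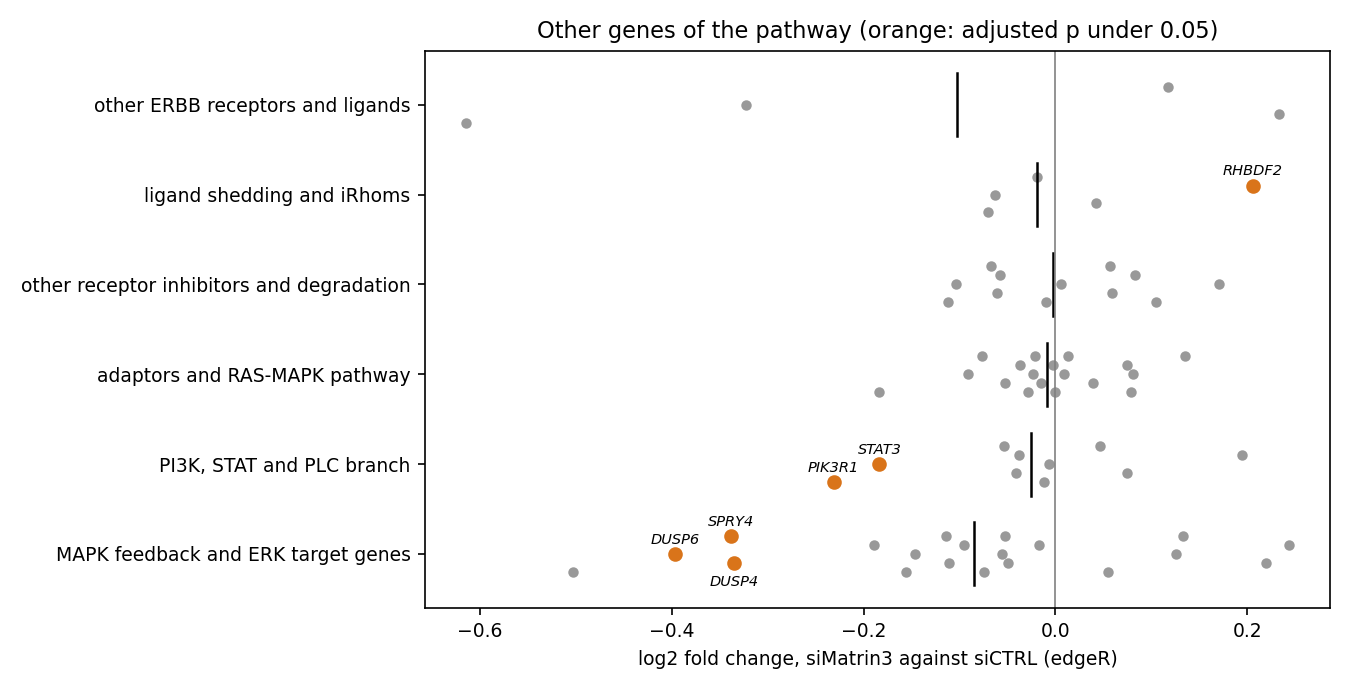
Log2 fold changes by edgeR, siMatrin3 against siCTRL, of the other pathway genes tested in 6 lists, where each point is a gene (orange and named where the adjusted p was under 0.05) and the black line is the median of the list. DUSP6, DUSP4 and SPRY4 in the feedback list lie between -0.40 and -0.34, and edgeR called no adaptor or cascade gene.

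LRIG1 had the smallest p of the 10 genes, so the genes with the most similar profile to it were listed. By Pearson's r of log2 CPM over the 6 libraries, the closest of 13408 other protein-coding genes tested were VAV1, ZMAT2, NR3C2, RGS5 and PPP1R12B, with r from 0.995 to 0.998. The points share the knockdown and the libraries, and 814 genes had an r over 0.9, so many genes were similarly close. These 5 genes were called lower by edgeR, with log2 fold changes from -0.95 for RGS5 to -0.16 for VAV1. Since they were chosen for a profile like that of LRIG1, a fall was close to fixed by the choice and is no separate result. RGS5 and NR3C2 averaged under 1 TPM in both groups.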

How the data were processed

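The 6 libraries were grouped by their labels into siCTRL and siMatrin3, with 3 replicates each. According to the methods, stranded poly(A) libraries were read in pairs. The authors aligned reads with STAR to hg19 and estimated gene levels with RSEM, and the processing notes name STAR 2.5.1 and cutadapt. The methods give a later STAR version, so the sources differ on it. Per the file headers, the authors deposited RSEM expected counts, TPM, FPKM (not used here) and weighted transcript lengths. Whether RSEM used strand is not given in the sources used here. Symbols came from GENCODE release 44 for 88.3% of genes.

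Rounded expected counts passed filterByExpr, were normalised by TMM, and entered a two-sided quasi-likelihood fit of edgeR 4.0.16 in R 4.3.3, with no covariates. Calls are Benjamini-Hochberg adjusted p-values under 0.05 over all genes tested. Weighted length was compared as log2 with limma 3.58.1, for genes that had at least 2 transcripts and 50 counts in every library. Alternatives were other scalings and filters, DESeq2 1.42.0, a length offset, limma on TPM, the replicate number as a block, and leaving out libraries. The 10 genes and the lists were chosen with earlier results of these data known. Named genes were the 10, MATR3, up to 4 called genes with the smallest p per pathway list, and the 5 most similar to the gene with the smallest p. In simulated data for this comparison (16576 genes tested), 200 genes were set to change, by 2-fold or 1.3-fold. Of these, edgeR found 81% at 2-fold and 61% at 1.3-fold, while it called 15 genes left as they were. Changes smaller than 1.3-fold, such as those of TGFA and LRIG1, were not simulated. The length test (12148 genes) found 76.5% of 200 genes shifted by 0.4 on the log2 scale and called 8 of the others.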

Additional observations from a re-analysis of the deposited data

How the results depend on the processing

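The number of genes called, 1849, was 1216 without replicate 1 of both groups (chosen after seeing the data), 706 with a length offset, and 437 and 429 with limma on log2(TPM + 1) and log2(TPM + 0.1). With single libraries left out it ran from 759 (without siMatrin3 replicate 3) to 1599, and was 770 without siCTRL replicate 3 and 1014 without siMatrin3 replicate 2. Of the 10 genes, 2 were called, 1 with a length offset or with limma on TPM at either pseudocount, and from 1 (without siMatrin3 replicate 3) to 3 with single libraries left out. Of the pathway genes, 6 were called, 13 with no filter, 3 with a length offset, 2 with limma on TPM at either pseudocount, and from 3 (without siMatrin3 replicate 2 or 3) to 7 with single libraries left out. For length, 1 gene was called, 2 with a minimum of 20 counts, 0 with the replicate block, and from 0 to 4 (without siMatrin3 replicate 1) with single libraries left out. The cause was not tested for any of these shifts. The summed ligand TPM was 12.85 higher in siMatrin3, and the difference ran from -33.2 (without siMatrin3 replicate 1) to 49.8 (without siCTRL replicate 1), within the spread between libraries.

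The replicate numbers were not shown to pair all the libraries. Deviations of same-numbered libraries correlated at 0.177, 0.0896 and 7.21e-05. Replicates 1 and 2 of each group correlated best with their own number, but replicate 3 of neither group did. With the replicate number as a block, 2716 genes, 3 of the 10 (ERRFI1 in addition, edgeR adjusted p = 0.00404) and 14 pathway genes were called. Of 337 values of single genes under the alternatives, 305 stayed on their side of the threshold, 28 lost and 4 gained a call. None of the called values changed sign. The 337 include MATR3, genes without a call, which had none to lose, and transcript lengths, none of which was called. The 28 losses fell on STAT3 (8 of 16 alternatives), PIK3R1 (7), RHBDF2 (7), LRIG1 (3), SPRY4 (2) and TGFA (1). AREG and EGFR, which were not called, changed sign in 1 alternative each, HBEGF in 3 and EREG in 4. With 3 libraries a group, small changes may be missed.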
